A study of Mus musculus with 4 samples.

Results

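The 10 genes described here encode the receptors through which group 2 innate lymphoid cells (ILC2) receive alarm and growth signals: Il1rl1, Il17rb, Crlf2, Il7r, Il2ra, Il18r1, Icos, Il4ra, Il9r and Kit. They were taken by symbol from a table of 15835 genes, which held all 10. Counts came from 4 libraries of ILC2 of fasted mice and 4 of ILC2 of fed mice. The cells were isolated from the pancreatic islets of Langerhans of C57BL/6j mice, a strain without an engineered allele in the labels, so the groups differ by the labels only in feeding. The columns headed control were taken as fed. Age, sex, length of the fast, the sort used and whether mice were pooled are not given in the sources used here.

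ILC2 are tissue-resident lymphocytes that carry no antigen receptor and are switched on by cytokines released from stressed epithelium and stroma. IL-33, IL-25 and TSLP, the alarmins, act through receptors encoded by Il1rl1, Il17rb and Crlf2 with their partner chains, and drive release of IL-5 and IL-13. IL-7, IL-2, IL-9 and IL-4 act through receptors that can contain the common gamma chain Il2rg and maintain or amplify the cells. Icos is a costimulatory receptor, and Kit is the receptor of stem cell factor.

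The promoters of Il1rl1 and of its neighbour Il18r1 are shown because the genes lie end to end, yet the one was read in every library and the other was close to undetected. Sequences are from RefSeq on GRCm38.p6, the same build as mm10, 5′ to 3′ on the plus strand, from 250 bases before to 50 after a start site. Capitals mark AGATAA or TGATAA on either strand, a core recognised by GATA factors such as Gata3, the lineage-defining factor of ILC2. Il1rl1 has a distal start site (chr1:40429320-40429619) and a proximal one (chr1:40439379-40439678), and the first Il1rl1 window holds 2 matches.
Il1rl1 distal: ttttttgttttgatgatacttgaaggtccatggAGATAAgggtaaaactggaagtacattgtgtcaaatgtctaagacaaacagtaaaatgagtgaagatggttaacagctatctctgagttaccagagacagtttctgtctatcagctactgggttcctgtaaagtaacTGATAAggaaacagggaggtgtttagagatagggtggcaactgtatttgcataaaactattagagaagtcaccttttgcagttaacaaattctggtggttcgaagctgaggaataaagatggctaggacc
Il1rl1 proximal: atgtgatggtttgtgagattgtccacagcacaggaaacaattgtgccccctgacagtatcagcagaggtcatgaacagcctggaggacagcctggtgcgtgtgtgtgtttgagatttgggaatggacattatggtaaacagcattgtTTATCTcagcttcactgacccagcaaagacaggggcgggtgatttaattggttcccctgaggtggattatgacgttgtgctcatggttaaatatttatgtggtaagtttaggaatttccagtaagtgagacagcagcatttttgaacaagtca
Il18r1: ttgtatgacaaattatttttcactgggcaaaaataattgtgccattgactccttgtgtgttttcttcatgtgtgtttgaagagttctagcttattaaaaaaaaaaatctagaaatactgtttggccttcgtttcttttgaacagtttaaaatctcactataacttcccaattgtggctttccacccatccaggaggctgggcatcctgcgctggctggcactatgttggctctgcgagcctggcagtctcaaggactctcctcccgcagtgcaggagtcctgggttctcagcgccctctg
The Il18r1 window (chr1:40465302-40465601) holds no match. Of the 9 receptor genes with a listed promoter, 2 held a match in the first listed window, Il1rl1 and Il9r, beside 19.0% of 27025 promoters of the same length. A match describes the letters only.

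Libraries held 1797504 to 25252366 counts and 9537 to 14056 detected genes, and each is called here by its column number (1, 3, 4 or 5). Acinar marker genes, which belong to the enzyme-secreting cells around the islets, took 2.27% and 2.53% of counts in fasted libraries 1 and 3, 48.8% and 51.6% in fasted libraries 4 and 5, and 29.3% to 52.1% in fed libraries. The fasted libraries thus fell into 2 acinar-poor and 2 acinar-rich ones, and values without the acinar-poor pair are given beside results that moved with it. The labelled cell type was checked on 18 ILC2 markers: all 18 had counts and 16 had counts in every library. Il1rl1, Il17rb, Il7r, Il2ra and Icos are among the 18, so the check is not independent of the receptors described here. Gata3 stood at 223 ± 32.2 counts per 1000000 (CPM) in fasted and 225 ± 82.2 CPM in fed libraries (SD, n = 4 each). Rora, another factor of the lineage, had 1 count in fasted and 5 counts in fed libraries. CPM here and below are scaled by library size and the trimmed mean of M values (TMM). In bulk RNA, fewer cells of a type and less RNA per cell cannot be told apart.

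Of the 10 receptor genes, 9 were read in every library, and Il18r1 was close to undetected. Each of the 9 had a log2 fold change above 0 in the fasted libraries, between 0.10 for Il17rb and 0.71 for Il2ra, but none passed the test. Il7r was the only one whose fasted and fed libraries did not overlap. The 9 genes passed the filter on low counts and Il18r1 did not. edgeR's quasi-likelihood test called 0 of the 9 at an adjusted p under 0.05, where 0% of 7700 tested genes were called, and 0 of the 9 at an unadjusted p under 0.05, where 4.39% of all genes were. DESeq2 and limma-voom also called 0 of the 9 on either rule. The median log2 fold change of the 9 was 0.33, beside 0.00 for all tested genes, of which 49.8% were above 0. It was 0.23 without the acinar-poor pair and 0.18 with the acinar share as a covariate. All 9 were measured in the same 8 libraries, so their directions are not independent, and no test was made over the list. The Benjamini-Hochberg adjusted p was 1.00 for each of the 9, and over the 19 alternatives of processing it did not fall below 0.58 for any.

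**Figure D1:**
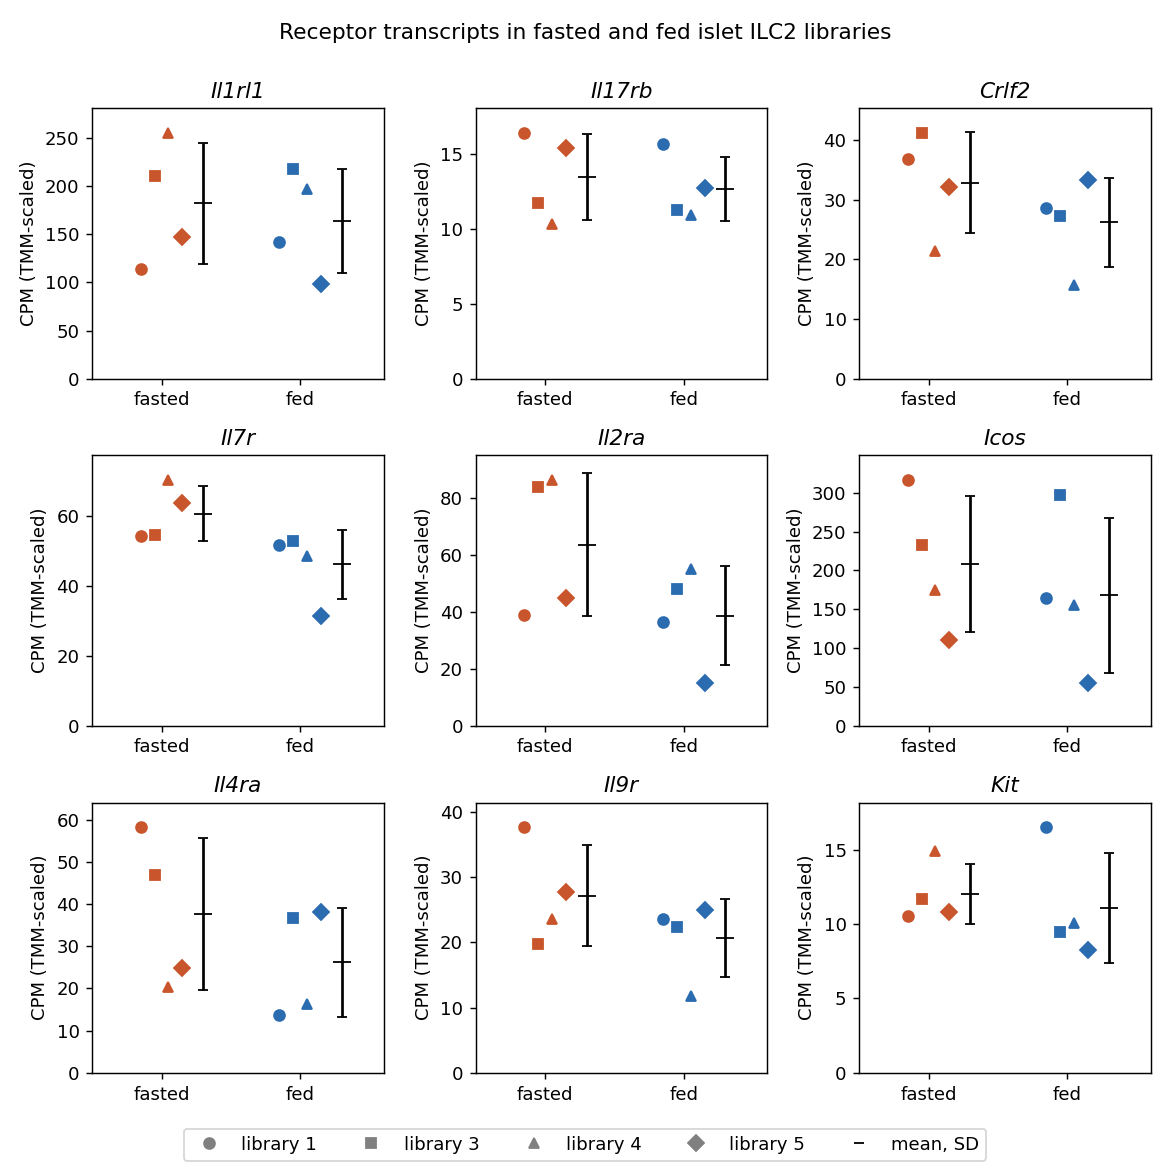
Level of each of the 9 tested receptor genes in CPM (TMM-scaled, vertical axis) in the 4 fasted and 4 fed libraries (points, shape by library number), with the group mean and SD beside them. Fasted and fed points overlap for each gene but Il7r, whose fasted libraries lie between 54.3 and 70.2 CPM and fed libraries between 31.5 and 52.8 CPM.

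Of the alarmin receptors, Il1rl1 encodes ST2, the IL-33 receptor. It had 114, 211, 255 and 147 CPM in fasted libraries 1, 3, 4 and 5, against 142, 217, 197 and 98.3 CPM in fed libraries 1, 3, 4 and 5. The groups overlapped over most of their range, with the highest value in fasted library 4 and the lowest in fed library 5. Its log2 fold change was 0.15 ± 0.31 (SE), with a 95% interval from -0.54 to 0.84, which allows 0.688-fold to 1.79-fold. Its sign turned without fasted library 4 (-0.064) and without fed library 5 (-0.025), and it was 0.30 without the acinar-poor pair. The gene yields a membrane receptor and a soluble decoy form with different 3′ ends. GENCODE vM21 lists 5 coding transcripts with 5 distinct 3′ ends between 40441407 and 40465415 on chromosome 1, and the counts pool them.

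Il17rb encodes the IL-25-binding chain. It stood at 16.4, 11.7, 10.3 and 15.4 CPM in fasted libraries 1, 3, 4 and 5, against 15.6, 11.2, 10.9 and 12.7 CPM in fed libraries 1, 3, 4 and 5. It varied least of the 9, by 1.59-fold between the highest and lowest library, and the groups overlapped throughout. Its log2 fold change was 0.10 ± 0.30, with a 95% interval from -0.57 to 0.77, -0.012 without fasted library 1 and 0.032 without the acinar-poor pair. Il17rb shares 10220 bases, its 3′ end included, with Actr8 on the opposite strand. The sources used here do not say whether strand was used in counting, so reads of these genes may not be separated.

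Crlf2 encodes the TSLP-binding chain, which works together with the IL-7 receptor chain. It had 36.7, 41.2, 21.4 and 32.0 CPM in fasted libraries 1, 3, 4 and 5, against 28.6, 27.3, 15.7 and 33.2 CPM in fed libraries 1, 3, 4 and 5. Library 4 was the lowest in both groups, and both acinar-poor fasted libraries lay above every fed library. For Crlf2 the log2 fold change was 0.33 ± 0.31 (95% interval -0.35 to 1.01). It was 0.03 without the acinar-poor fasted libraries and 0.07 with the acinar share as a covariate.

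Il18r1 encodes the ligand-binding chain of the IL-18 receptor, which marks some ILC2, for instance in skin of mice. It had 2 counts, all in fasted library 5, and 3 counts, all in fed library 4. In the libraries with 0 counts, a floor of 3 counts allows up to 0.553 to 0.702 CPM in fasted and 0.406 to 1.34 CPM in fed libraries. No fold change is given, since both groups were at or under that floor, which covers counting error only. Il18r1 begins 136 bases beyond the end of Il1rl1 on the same strand of chromosome 1. Il1rl1 itself had 3732 counts in fasted and 4883 counts in fed libraries, summed over libraries of unequal depth. Of other family genes in that cluster, Il1r2, a decoy receptor for IL-1, had 0 counts in fasted and 9 in fed libraries, all in 1 library. Il1rl2, the IL-36 receptor, had 0 counts in fasted and 5 in fed libraries, all in 1 library. Il18rap, the second IL-18 receptor chain, had 3 counts in fasted and 1 count in fed libraries.

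**Figure D2:**
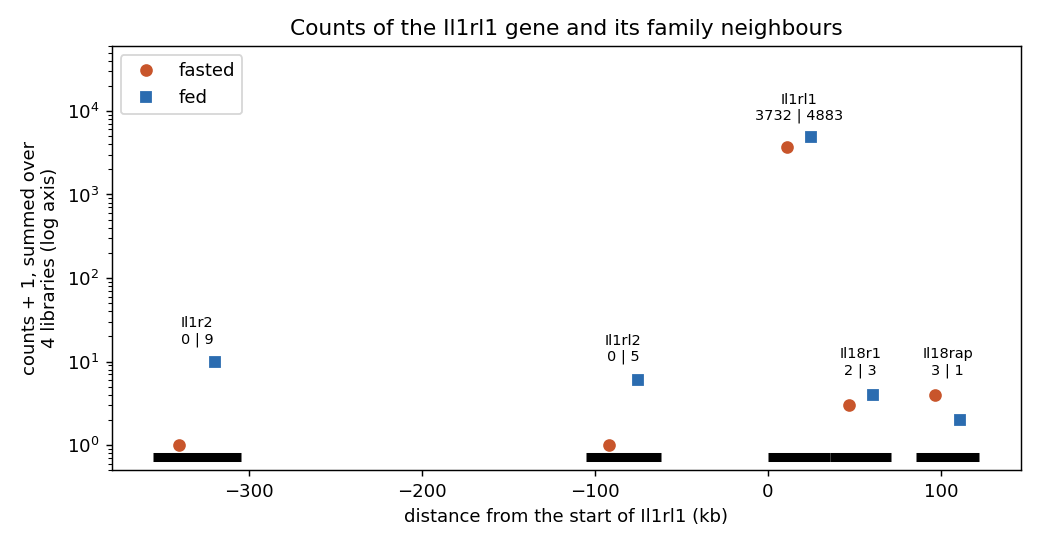
Counts plus 1 on a log axis, summed over the 4 fasted (circles) and 4 fed (squares) libraries, for Il1rl1 and its neighbours in the interleukin-1 receptor cluster, placed by distance from the start of Il1rl1 in kb. Black bars mark the genes, and labels give the counts; Il1rl1 stands at 3732 counts in fasted and 4883 in fed libraries, and the other genes shown are at 9 counts or fewer in either group.

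Among the receptors of growth cytokines, Il7r encodes the IL-7 receptor alpha chain, needed for the development and upkeep of innate lymphoid cells. It had 54.3, 54.4, 70.2 and 63.7 CPM in fasted libraries 1, 3, 4 and 5, against 51.7, 52.8, 48.6 and 31.5 CPM in fed libraries 1, 3, 4 and 5. Every fasted library was above every fed library, though fasted 1 and 3 exceeded fed 3 by less than 2 CPM, beside 3.52% of all tested genes without overlap. The mean was 60.7 ± 7.75 CPM in fasted and 46.1 ± 9.92 CPM in fed libraries (SD, n = 4 each). The log2 fold change was 0.39 ± 0.24 (edgeR, Benjamini-Hochberg adjusted p = 1.00, unadjusted p = 0.12), with a 95% interval from -0.13 to 0.91. It was above 0 in all 19 alternatives, from 0.25 without fed library 5 to 0.78 with library totals alone, a setting that raised the median of all tested genes to 0.51. Without the acinar-poor pair the log2 fold change of Il7r was 0.54, and with the acinar covariate 0.49.

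Il2ra encodes CD25, the alpha chain that gives the IL-2 receptor its high affinity. It had 38.8, 83.9, 86.3 and 44.9 CPM in fasted libraries 1, 3, 4 and 5, against 36.6, 47.9, 54.9 and 15.1 CPM in fed libraries 1, 3, 4 and 5. Fasted libraries 3 and 4 lay above all fed libraries, and fasted 1 and 5 lay inside the fed range. Il2ra had the largest log2 fold change of the 9 receptors as fitted here, 0.71 ± 0.40 (edgeR, Benjamini-Hochberg adjusted p = 1.00, unadjusted p = 0.11), with a 95% interval from -0.18 to 1.59. It was higher in the fasted library of 4 of 4 same-number pairs, as was Il7r. With the number as a block the log2 fold change was 0.77, with an unadjusted p of 0.019 and an adjusted p of 0.71 (edgeR). Without fed library 5 it was 0.45, so 1 library moved it by over 1.5 times. Il2ra shares 421 bases with the predicted gene Gm37881 on the same strand, so reads of these genes may not be separated.

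Il4ra encodes the IL-4 receptor alpha chain, which also serves IL-13. It had 58.2, 46.8, 20.3 and 24.8 CPM in fasted libraries 1, 3, 4 and 5, against 13.8, 36.7, 16.4 and 38.0 CPM in fed libraries 1, 3, 4 and 5. The acinar-poor fasted libraries 1 and 3 were the highest of all 8, and the acinar-rich fasted libraries 4 and 5 lay inside the fed range. Il4ra had a log2 fold change of 0.51 ± 0.43 (95% interval -0.44 to 1.47). It was -0.23 without the acinar-poor libraries, -0.12 with the acinar covariate and 0.51 with acinar and islet genes removed. The sign thus turned in the settings that leave out or set apart fasted libraries 1 and 3. Acinar share cannot be told apart there from other traits of these libraries. Il4ra overlaps the predicted gene Gm44876 on the opposite strand over 1342 bases.

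Il9r encodes the IL-9 receptor, a growth and survival receptor of ILC2 that the cells can engage with their own IL-9. It had 37.7, 19.7, 23.6 and 27.7 CPM in fasted libraries 1, 3, 4 and 5, against 23.6, 22.3, 11.8 and 25.0 CPM in fed libraries 1, 3, 4 and 5. Fasted libraries 1 and 5 lay above all fed libraries, and fed library 4 below the rest. Its log2 fold change was 0.40 ± 0.32 (95% interval -0.31 to 1.11). It remained above 0 in all 19 alternatives, from 0.19 without fed library 4 to 0.89 with library totals alone. Without the acinar-poor pair it was 0.31.

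Kit, whose product marks progenitors and mast cells and is found on some ILC2, had 10.5, 11.7, 14.9 and 10.8 CPM in fasted libraries 1, 3, 4 and 5, against 16.5, 9.47, 10.1 and 8.22 CPM in fed libraries 1, 3, 4 and 5. The highest value was in fed library 1 and the groups overlapped. Kit had a log2 fold change of 0.13 ± 0.34 (95% interval -0.61 to 0.87). It was 0.37 without fed library 1, -0.0016 without fasted library 4 and 0.23 without the acinar-poor pair.

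Icos, the costimulatory receptor that ILC2 can engage through their own ICOS ligand, varied most, by 5.81-fold over the 8 libraries. It had 316, 233, 175 and 110.3 CPM in fasted libraries 1, 3, 4 and 5, against 164, 297, 156 and 54.5 CPM in fed libraries 1, 3, 4 and 5. The acinar-poor fasted libraries were the highest in their group, but fed library 3 lay between them. The log2 fold change was 0.31 ± 0.47 (95% interval -0.72 to 1.35). Without the acinar-poor fasted libraries it was -0.23, with the acinar covariate -0.19 and with acinar and islet genes removed 0.31. It was 0.03 without fed library 5 and 0.74 without fed library 3. Icos shares 2485 bases with the predicted gene Gm37039 on the same strand, so reads of these genes may not be separated.

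**Figure D3:**
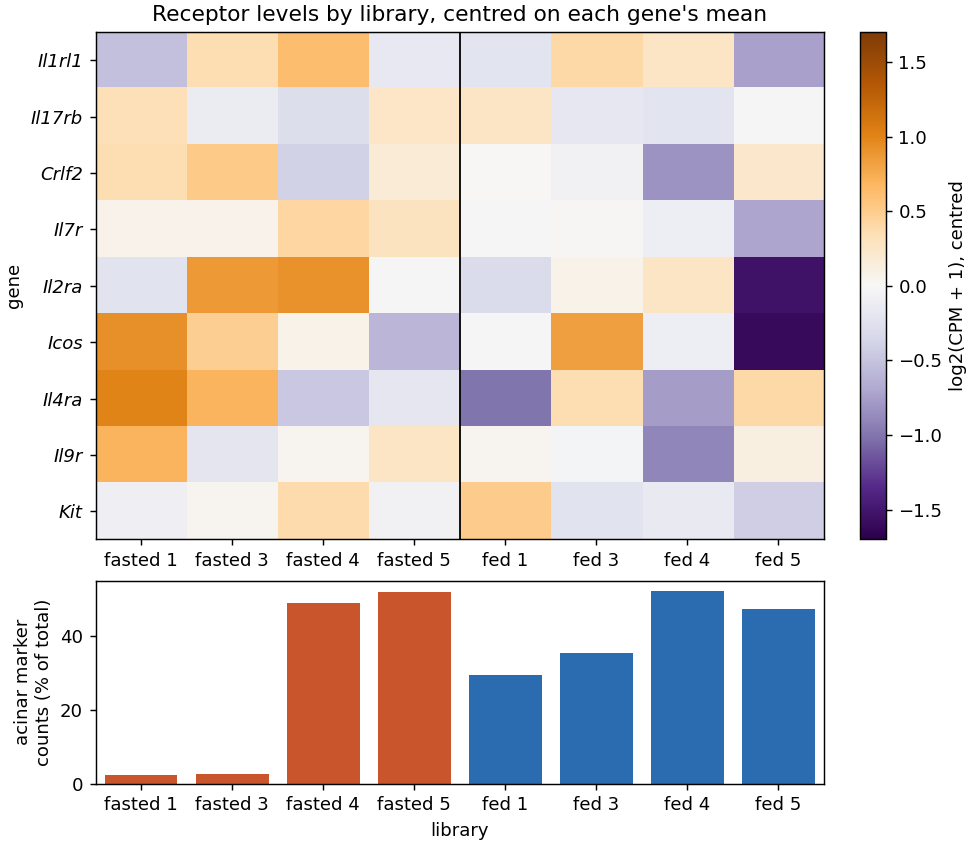
Upper panel, log2(CPM + 1) of each tested receptor gene (rows) in each library (columns), centred on the gene's mean over the 8 libraries. Lower panel, acinar marker counts in percent of the library total, at 2.27% in fasted library 1 and 2.53% in fasted library 3. Fasted library 1 holds the highest values of Il17rb, Icos, Il4ra and Il9r, and fasted library 3 that of Crlf2. Fed library 5 holds the lowest values of Il1rl1, Il7r, Il2ra, Icos and Kit.

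The receptors did not follow one pattern across libraries. Fasted library 1 was the highest of the 8 for Il17rb, Icos, Il4ra and Il9r, and fasted library 4 for Il1rl1, Il7r and Il2ra. Fed library 5 was the lowest for Il1rl1, Il7r, Il2ra, Icos and Kit, yet stood above the mean of all libraries for Crlf2, Il4ra and Il9r. Within same-number pairs, the fasted library was higher for 7, 6, 8 and 7 of the 9 receptors in pairs 1, 3, 4 and 5. The share of all tested genes higher in each pair is not given here, so these counts stand without a background. Median log2 differences of the 9 receptors in these pairs were 0.08, 0.06, 0.43 and 0.36. The acinar-poor fasted libraries are in pairs 1 and 3, where these medians were lowest.

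Genes whose levels moved most like 3 of the receptors were ranked by the mean absolute difference of centred log2(CPM + 1) over the 8 libraries. Closest to Il1rl1 were Mdfic, Hspa4 and Spast, at 0.13, 0.14 and 0.14, where the median tested gene was at 0.57. Closest to Il7r were Ssh2, Limd1 and Tpd52l2, at 0.10, 0.10 and 0.11, with the median gene at 0.48. Closest to Il2ra were Mex3c, Tmem260 and Rnf128, at 0.17, 0.18 and 0.19, with the median gene at 0.70. Mex3c had 0 to 31 counts per library, Tmem260 1 to 31 and Spast 4 to 57, so their closeness rests on few counts. All were picked as the closest of all tested genes. Hspa4 is a chaperone of the heat shock protein family and Rnf128 an E3 ubiquitin ligase known for a role in T cell anergy. None of these 9 genes passed the test between groups.

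Of 6 partner chains, 4 were tested: 2 had a log2 fold change above 0, 2 below, and 0 passed. Il2rg, the common gamma chain, had 1770.2, 1952, 1342 and 1217 CPM in fasted libraries 1, 3, 4 and 5, against 2061, 1841, 1235 and 1538 CPM in fed libraries 1, 3, 4 and 5. The groups overlapped, and its log2 fold change was -0.09 ± 0.24. Il2rb, the beta chain shared by the IL-2 and IL-15 receptors, was at 45.5 ± 13.3 CPM in fasted and 53.8 ± 18.2 CPM in fed libraries (SD, n = 4 each), a log2 fold change of -0.24 ± 0.31. Both signs turned with library totals alone, to 0.48 and 0.45, in the setting that raised the median of all tested genes to 0.51. Without the acinar-poor pair they were -0.39 for Il2rg and -0.65 for Il2rb, and with the acinar covariate -0.36 for Il2rg and -0.58 for Il2rb. Il17ra, which pairs with Il17rb, was at 21.9 ± 6.63 CPM in fasted and 14.9 ± 3.97 CPM in fed libraries, a log2 fold change of 0.56 ± 0.32, and 0.20 without the acinar-poor fasted libraries. Il1rap, the partner of ST2, had 8, 17, 9 and 21 counts in fasted libraries 1, 3, 4 and 5, against 0, 27, 40 and 0 counts in fed libraries 1, 3, 4 and 5. Il18rap and Il13ra1, another partner of the IL-4 receptor alpha chain, were not tested; Il13ra1 had 3 counts in fasted and 5 counts in fed libraries.

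**Figure D4:**
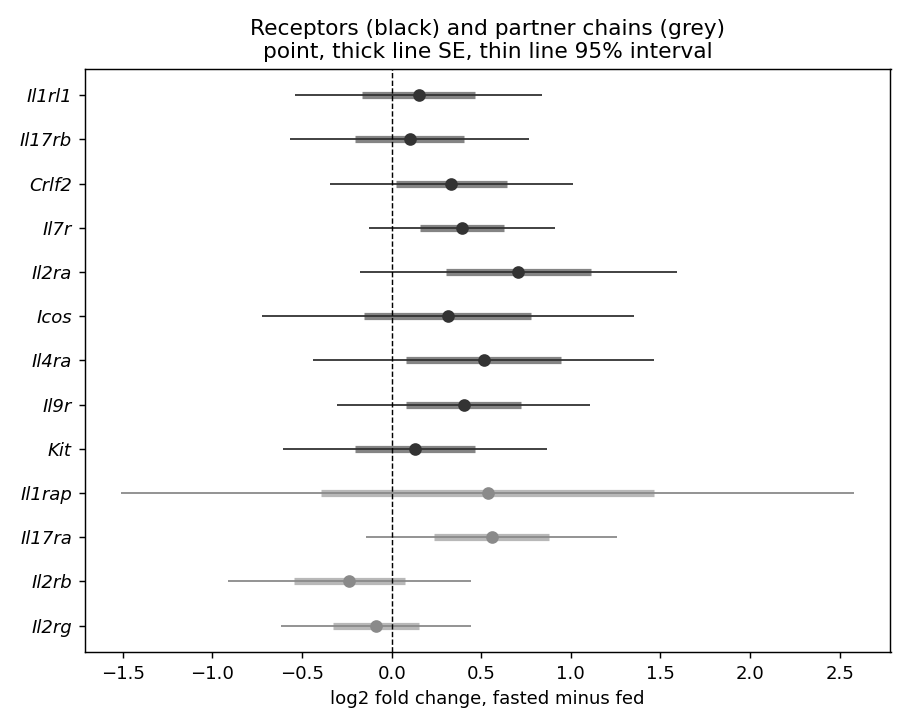
Log2 fold change, fasted minus fed (horizontal axis), of the 9 tested receptor genes (black) and 4 tested partner chains (grey), with SE as thick and 95% interval as thin lines. Each interval crosses 0; Il2ra is at 0.71, Il7r at 0.39 and Il2rg at -0.09.

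Ratios of chains of one receptor within a library need no library size, and 7 were compared. The log2 count ratio to Il2rg was higher in fasted than fed libraries by 0.50 for Il7r, 0.87 for Il2ra, 0.62 for Il4ra and 0.50 for Il9r. For each, the fasted library had the higher ratio in at least 3 of 4 same-number pairs, and the groups overlapped. All of these ratios share Il2rg as denominator, so they are not separate observations. By library, the Il4ra ratio was -4.93 and -5.38 in fasted libraries 1 and 3, against -6.05 and -5.61 in fasted 4 and 5. The Il7r ratio was -5.03 and -5.16, against -4.26 and -4.26. For Il2ra and Il9r the acinar-poor and acinar-rich fasted libraries overlapped. Differences without the acinar-poor pair were not computed for the ratios. An exact permutation test, two-sided, enumerated all 70 ways to assign the libraries and cannot go below p = 0.0286. For the ratios to Il2rg the exact permutation p was 0.17 for Il7r, 0.20 for Il2ra, 0.26 for Il4ra and 0.17 for Il9r (adjusted over the 7 ratios, 0.33 each). The ratio of Il2ra to Il2rb differed by 1.01 (exact permutation p = 0.29, adjusted p = 0.33), with SDs of 0.85 in fasted and 1.30 in fed libraries. The ratio of Crlf2 to Il7r, the TSLP receptor pair, differed by -0.08 (exact permutation p = 0.86, adjusted p = 0.86). The ratio of Il17rb to Il17ra, the IL-25 receptor pair, differed by -0.47 and was lower in the fasted library of 4 of 4 pairs (exact permutation p = 0.11, adjusted p = 0.33). This log2 ratio was -0.93 in fasted libraries 1 and 3, -0.67 in fasted library 4 and -0.21 in fasted library 5. None of the 7 ratios passed. This test does not use the pairing; an exact sign-flip test over the 4 same-number pairs, which cannot go below p = 0.125, gave p = 0.125 for the ratios of Il2ra to Il2rg and of Il17rb to Il17ra and 0.25 to 0.875 for the other 5.

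Of 11 ligand genes, all had counts but 2 could be tested. Icosl, the ICOS ligand, had 16.1, 27.1, 23.2 and 29.0 CPM in fasted libraries 1, 3, 4 and 5, against 12.9, 29.2, 11.3 and 8.56 CPM in fed libraries 1, 3, 4 and 5. Every fasted library lay above 3 of the 4 fed libraries, and fed library 3 was the highest of all 8. The log2 fold change was 0.61 ± 0.40 (95% interval -0.26 to 1.48), and 1.12 without fed library 3. Il13, an ILC2 product, had 33.9, 47.8, 34.1 and 39.8 CPM in fasted libraries 1, 3, 4 and 5, against 21.0, 117, 72.1 and 102 CPM in fed libraries 1, 3, 4 and 5. Fed library 1 lay below every fasted library and the other fed libraries lay above every fasted one, so pair 1 went the other way. Its log2 fold change was -1.01 ± 0.42 (edgeR, unadjusted p = 0.036, adjusted p = 1.00). It was -0.81 with the number as a block (edgeR, unadjusted p = 0.051), -0.42 with library totals alone and -1.32 without fed library 1. The alarmin genes Il33, Il25 and Tslp, products of epithelium and stroma, had 0 counts in fasted libraries and 9, 6 and 1 counts in fed libraries, all in fed library 4, the deepest. In fasted libraries Il2 had 37, Il4 28 and Il9 4 counts, against 45, 34 and 22 counts in fed libraries. The 22 fed counts of Il9 were all in fed library 4, and its 4 fasted counts all in fasted library 5. Il7, Il18 and Kitl, which encodes stem cell factor, had 0 counts in fasted libraries, against 4, 5 and 11 counts in fed libraries. The Il7 counts were all in fed library 1, the Il18 counts all in fed library 4, and 10 of the Kitl counts in fed library 4.

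Of 16 further cytokine receptor genes, 15 were analysed and 9 tested, with 6 log2 fold changes above 0, 3 below and 0 called. The 3 with the smallest p were Tnfrsf1b, a TNF receptor, at 0.68 ± 0.34, Ifngr1, an interferon gamma receptor chain, at 0.63 ± 0.33, and Il10rb, an IL-10 receptor chain, at -0.41 ± 0.28. Leaving out fed library 1 moved Tnfrsf1b to 1.03. Ifngr1 was at 0.23 without the acinar-poor pair and at 0.26 with the acinar covariate. Il10rb stood at 14.4 ± 0.454 CPM in fasted and 19.2 ± 5.05 CPM in fed libraries (SD, n = 4 each). Its highest fasted library, at 14.8 CPM, lay just below its lowest fed library, at 15.0 CPM, and 3.52% of all tested genes had no overlap. It was at -0.22 without fed library 5 and at 0.12 with library totals alone, where its sign turned. Of 21 signalling genes below the receptors, 20 were tested, with 18 above 0, 2 below and 0 called, and a median of 0.13. Stat5b, a transducer of IL-2, IL-7 and IL-9 signals, had 16.1, 13.9, 9.40 and 10.8 CPM in fasted libraries 1, 3, 4 and 5, against 10.7, 7.85, 4.51 and 6.51 CPM in fed libraries 1, 3, 4 and 5. It was higher in fasted libraries in 4 of 4 pairs, with 1 fasted library below the highest fed one, at 0.78 ± 0.38 (edgeR, unadjusted p = 0.063, adjusted p = 1.00). Its highest values were in the acinar-poor pair, without which it was at 0.47, and it was at 0.49 with the acinar covariate. Irak4, a kinase below ST2 and the IL-18 receptor, was at 1.19 ± 0.59, and 0.46 without fasted library 1 or 0.36 without the acinar-poor pair. Stat6, the transducer of IL-4 and IL-13, was at 0.37 ± 0.27, and at 0.05 when the acinar-poor pair was left out.

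Other cells that carry these receptors were looked for by their markers, summed as TMM-scaled CPM. On this scale the 18 ILC2 markers summed to 2728 to 3251 CPM in fasted and 2332 to 3473 CPM in fed libraries. Thy1 and Klrg1 held 50.1% of those counts. Mast cells and basophils carry Kit and Il1rl1. Of 11 listed markers 4 had counts, at a summed 0.936 to 8.48 CPM in fasted and 0.892 to 5.84 CPM in fed libraries, and the other 7, among them the mast cell proteases Mcpt4, Cma1, Tpsb2 and Tpsab1, were not analysed here. Regulatory T cells carry Il2ra, Icos and in some tissues Il1rl1; their defining factor Foxp3 had 0 counts in fasted and 2 counts in fed libraries. All 6 markers of that list had counts, at 106 to 188 CPM in fasted and 79.1 to 124 CPM in fed libraries, and 91.9% of their counts were Tnfrsf18, which ILC2 also express. Of 12 T cell markers, 8 had counts, at 70.1 to 81.4 CPM in fasted and 40.8 to 57.5 CPM in fed libraries, without overlap on this scale. Scaled by library totals alone, the sums overlapped, at 45.3 to 170 CPM in fasted and 21.9 to 55.6 CPM in fed libraries. Cd3g, a CD3 chain, and Lef1, a transcription factor of T cells, held 92% of those counts. Lef1 had 419 counts in fasted and 210 in fed libraries, and Cd3g 965 and 855. Cd3e had 118 counts in fasted and 32 in fed libraries, and Cd3d 11 and 9. Cd28 had 23 counts in fasted libraries, 22 of them in fasted library 3, and 0 in fed libraries. Cd8a, Cd8b1 and Cd5 had 0, 2 and 0 counts in fasted libraries, against 11, 4 and 3 in fed libraries. Trac, Trbc1, Trbc2 and Cd4 were not analysed here. B cell markers, 5 of 7 with counts, were at 3.12 to 11.6 CPM in fasted and 0.677 to 5.84 CPM in fed libraries. Markers of NK cells, ILC1 and ILC3, 4 of 9 with counts, were at 26.7 to 68.1 CPM in fasted and 32.7 to 68.3 CPM in fed libraries. Ccl5, a chemokine made by several lymphocyte types, held 96% of those counts, and the defining genes Ncr1 and Tbx21 had 1 and 0 counts in fasted and 4 and 3 counts in fed libraries. Myeloid markers, 8 of 11 with counts, were at 3.98 to 53.3 CPM in fasted and 2.74 to 10.7 CPM in fed libraries. The highest T cell, regulatory T cell and myeloid sums were in fasted library 1, where Icos, Il4ra and Il9r also peaked, though the T cell sum of fasted library 5 was close to it, at 80.4 CPM. The part of these cells in the receptor levels was not tested.

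**Figure D5:**
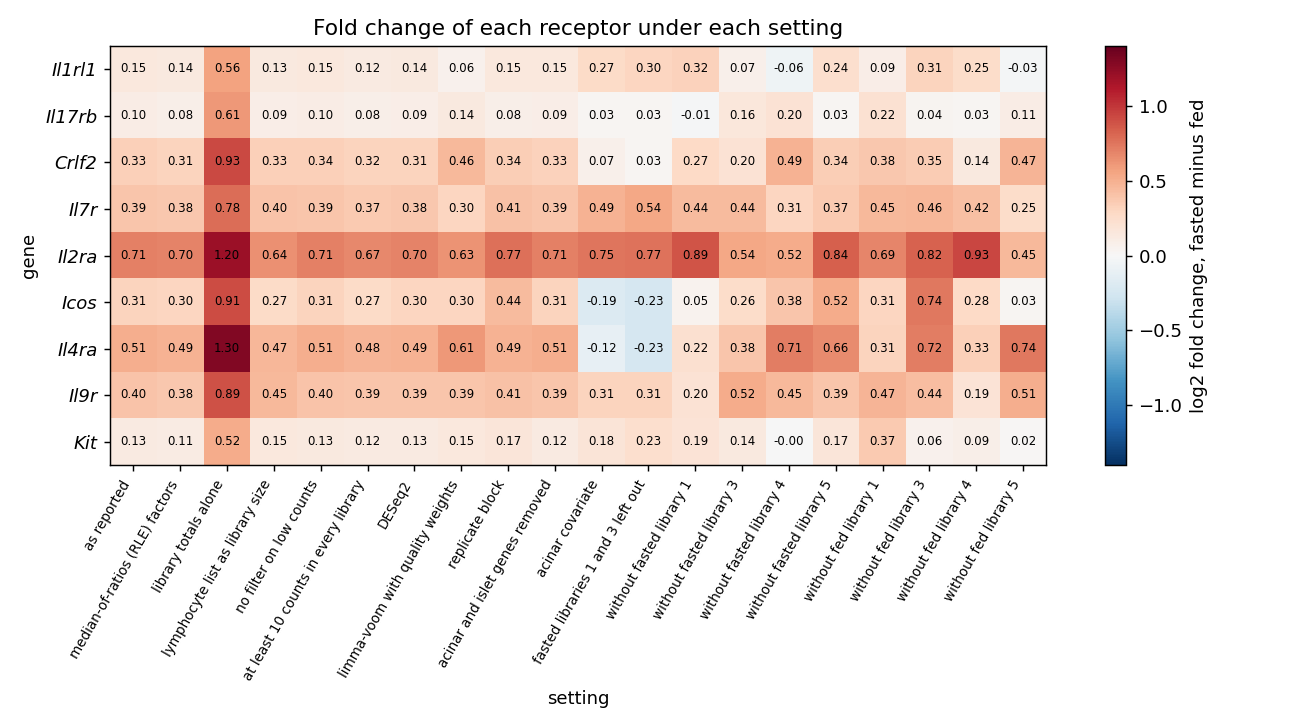
Log2 fold change, fasted minus fed (colour and printed value), of each tested receptor gene (rows) as reported and under 19 alternative settings (columns). All 9 genes are above 0 in 14 of the 19; the exceptions are Icos and Il4ra with the acinar covariate or without fasted libraries 1 and 3, and Il17rb, Il1rl1 or Kit when fasted library 1 or 4 or fed library 5 is left out.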

How the data were processed

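RNA of islet ILC2 was measured with CEL-seq2, a 3′ end method with a barcode per sample, per the labels' protocols. The authors deposited whole-number counts per gene, not normalised; the submitters' processing notes name STAR, edgeR and mm10. The sources used here do not say whether reads or molecular identifiers were counted. The 4 sequencing files each hold both treatments, so treatment was read from column names; 8 columns were used and 2 were not. No source says that libraries are of separate mice: p-values cover the spread between libraries, which may be technical. Within a group no 2 libraries agreed within counting noise (smallest chi-square per gene 10.8).

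With edgeR 4.0.16 in R 4.3.3, 11 ERCC rows (20 counts) were left out and filterByExpr kept 7700 of 15835 genes. The robust quasi-likelihood test with TMM factors compared fasted with fed, two-sided, adjusted by Benjamini-Hochberg over all tested genes at 0.05, after being tested on simulated data. SE is the log2 fold change over the square root of F. Floors are 3 counts. Same-number libraries correlated in their deviations from group means at 0.25, 0.16, 0.53 and 0.14, all above 0.1. Of 12 different-number pairs, 2 also exceeded 0.1 (0.22 and 0.24), and what the numbers mark is not stated. The main test did not use the numbers. Same-number libraries were treated as pairs only in the counts within pairs, the sign-flip test and the replicate block.

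Members, lists, named genes and alternatives were chosen with earlier results of these data known. Named are the 10 receptors, partner chains, ligands, the 3 smallest p of each other list and the 3 genes most like Il1rl1, Il7r and Il2ra. Chain ratios and their paired test were chosen after seeing the data. Alternatives were other scaling factors, filters and tools (DESeq2 1.42.0, limma 3.58.1), the replicate block, acinar RNA and each library left out. Coordinates are from GENCODE vM21, on mm10.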

Additional observations from a re-analysis of the deposited data

Results flagged for a closer look

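3 values stood far from the other libraries of their group, out of 65 groups of 4 checked, where chance flags about 1 in 20. Il9 was at 1.63 CPM in fed library 4 and at 0 in the other fed libraries. Tnfrsf1b was at 29.0 CPM in fed library 1, against 13.0 to 14.2 CPM in the other fed libraries. Limd1, one of the genes closest to Il7r, was at 14.7 CPM in fed library 5, against 26.8 to 28.4 CPM in the other fed libraries. None of the 10 receptor genes was among them.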

How the results depend on the processing

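Of 581 values of named genes under 19 alternatives, 560 kept their direction and their side of the threshold and 21 changed sign; none was called. With the acinar covariate Icos was at -0.19 and Il4ra at -0.12, and without fasted libraries 1 and 3 at -0.23 and -0.23. With library totals alone Il2rb, Il2rg, Il10rb and Gata3 turned to 0.45, 0.48, 0.12 and 0.51. With the replicate block Gata3 was at 0.032, the members' median was 0.41, and the block changed no call. With a library left out the ranges were -0.064 to 0.32 for Il1rl1, -0.012 to 0.22 for Il17rb, -0.0016 to 0.37 for Kit, -0.21 to 0.032 for Il2rg, -0.41 to 0.0016 for Il2rb, -0.13 to 0.26 for Gata3, -0.042 to 0.36 for Mdfic and -0.10 to 0.43 for Hspa4. The causes were not tested. Genes called numbered 0 as reported, 1 with library totals alone, 1 with no filter on low counts and 8 with DESeq2, and 0 in the other alternatives. The members' median was 0.89 with library totals alone, a setting that raised the median of all tested genes to 0.51. The members' median was 0.18 with the acinar covariate, 0.23 without fasted libraries 1 and 3, and 0.22 to 0.44 with a library left out. Il18r1 and the 9 ligand genes that were not tested did not pass the filter on low counts, and the cause of their low counts was not tested. The other receptors had 24 or more counts in each library.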
